A study of Homo sapiens with 4 samples.

Results

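Poly(A) regions are the places where the 3' ends of polyadenylated transcripts were sequenced. Strong isolated regions were selected on their reads, 2000 or more over the 4 libraries together, and on their position, with no other region of the same strand within 5000 bases on either side. The gap was counted from the end of a region to the start of the next. The rule found 562 such regions among 31081 (1.81%). Of all 11686 isolated regions 4.81% were strong, and of all 1686 strong regions 33.3% (95% Wilson interval 31.1% to 35.6%) were isolated. Reads and same-strand gaps chose the regions and are described below with no test.

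All 4 libraries are biological replicates of DICER(ex5) cells, which the labels call hypomorphic for Dicer and which derive from HCT116, a human colon cancer line. Dicer, a ribonuclease, releases mature microRNAs from their hairpin precursors. The cells were grown in McCoy's 5A medium with serum and no further treatment is named, and no other genotype is in the series, so every comparison is between regions or between libraries. Poly(A)+ RNA was broken with alkali, fragments of 50 to 100 nt were kept, and cDNA was primed with anchored oligo(dT), so that reads mark the junction of transcript body and tail. The sources used here do not say whether the line is a single clone.

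The 3' end of most mRNAs is made by cleavage of the nascent transcript, followed by addition of the poly(A) tail. A hexamer upstream of the cut, most often AAUAAA, is bound by the cleavage and polyadenylation specificity factor, and a GU-rich stretch downstream by the cleavage stimulation factor. Cleavage at a signal is not exact to the base, and a poly(A) region therefore gathers neighbouring cut positions. Many human genes carry several such signals and use them to different extents, while others end at a single place. A region with no neighbour on its strand is what a transcript with a single end gives, although priming of oligo(dT) on an internal run of A can give such a region too.

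The libraries held 5211279, 2163977, 5713530 and 3984278 reads. Levels are given as CPM, reads scaled to a library total of 1000000, and all positions are on hg19. The libraries formed 2 pairs. In log2(CPM + 1) over the 562 regions, library 1 had a Pearson's r of 0.98 with library 2, and library 3 one of 0.99 with library 4, while every cross combination gave 0.81 to 0.89. These r values describe regions counted in the same libraries. Neither the labels nor the table name a batch. Values are therefore given for all 4 libraries and, where they rest on this division, for the 2 pairs alone. No gene is named in the table and no annotation of this build was used here, so regions are named by position, and the marker genes of the line and DICER1 itself were not checked. No bases are printed for the same reason.

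The strong isolated regions held 2952162 reads, which was 17.2% ± 0.425 of a library (SD, n = 4). Their share was 16.9% in library 1, 16.8% in library 2, 17.6% in library 3 and 17.6% in library 4. It was thus higher in libraries 3 and 4, by less than 1 percentage point. The median region stood at 195 CPM, the interquartile range ran from 148 to 320, and the whole set spanned 110 to 3175. The median over the regions was 198, 193, 197 and 197 CPM in libraries 1 to 4. By comparison, the 1124 strong regions with a same-strand neighbour held 40.3% ± 1.09 of the reads (SD, n = 4) and had a median of 212 CPM. Over all regions of the table the median was 5.83 CPM.

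Reads within the set were concentrated in its upper end. The 10 strongest regions held 13.7% of the set's reads, the 50 strongest 33.8% and the 100 strongest 47.4%. Mean levels of 1000 CPM or more were reached by 19 regions and of 500 CPM or more by 67. At the other end, 228 regions (40.6%) had fewer than 3000 reads.

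**Figure D1:**
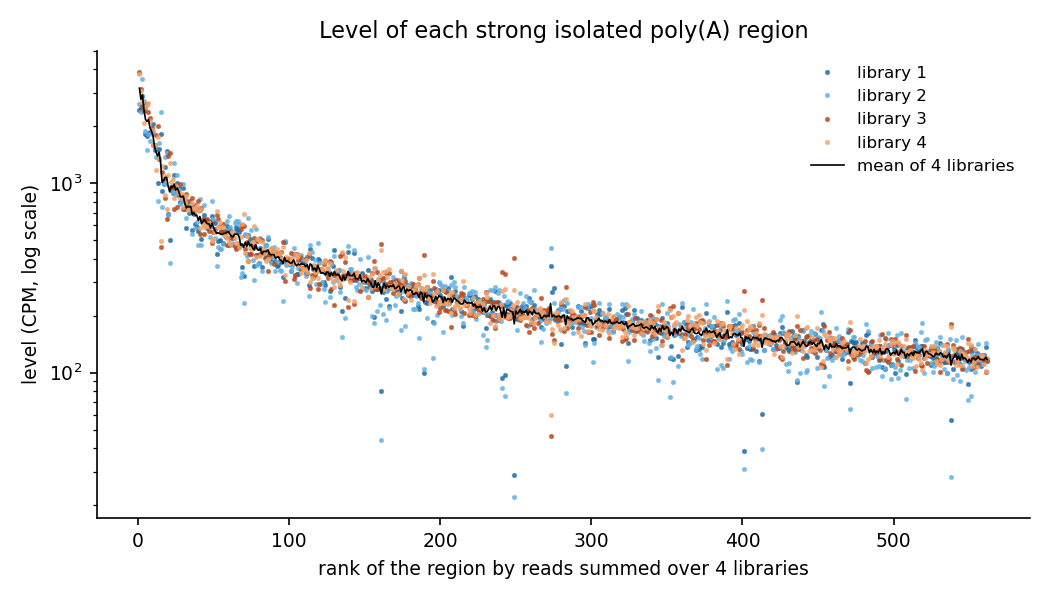
Level of each of the 562 strong isolated regions in CPM (log scale), ranked by reads summed over the libraries, with a point per library and a line for the mean of the 4 libraries. The mean falls from 3175 CPM for the strongest region to 117 for that with 2002 reads, and a few regions have libraries far below or above the line.

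The strongest isolated region was chr14:50050249-50050355 on the minus strand, 107 bases wide. Its level was 2446, 2615, 3868 and 3771 CPM in libraries 1 to 4 (3175 ± 748, SD, n = 4), so that libraries 3 and 4 lay above libraries 1 and 2 without overlap. Its nearest same-strand region lay 35044 bases away on the 5' side, towards the transcript body, and beyond its 3' end nothing was listed on that strand for 2061475 bases. The next by reads was chr19:58906135-58906182 on the plus strand, with 2491, 2368, 3157 and 3071 CPM and again higher levels in libraries 3 and 4. The order turned for chr20:60963536-60963604 on the plus strand, with 2875, 3559, 2572 and 2683 CPM, where libraries 1 and 2 were the higher. This last region faced a weak region of 61 reads on the opposite strand, 67 bases beyond its 3' end.

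The fourth by reads, chr22:24237370-24237427 on the plus strand, had 2595, 2714, 2393 and 2088 CPM, also higher in libraries 1 and 2. Libraries 3 and 4 were the higher at chr15:69747857-69747943 (plus strand; 1812, 1878, 2501 and 2518 CPM), and at chr19:49118577-49118641 (minus strand; 1775, 1494, 2614 and 2593 CPM). The same order was seen at chr9:127620144-127620215 (minus strand; 1835, 1818, 2373 and 2666 CPM) and at chr12:125396191-125396237 (minus strand; 1854, 1670, 2199 and 2120 CPM). The most even of the 10 was chr16:30081693-30081749 on the plus strand, with 1863, 1810, 1968 and 1903 CPM. Its coefficient of variation (CV, the SD over the mean of the libraries) was 3.53%, the lowest of the 10, and the others had 11.2% to 26.9%. The tenth, chr7:75933562-75933669 on the plus strand, had 2044, 1897, 1589 and 1590 CPM. Of these 10 regions 7 thus had both of their highest values in libraries 3 and 4, and 3 in libraries 1 and 2.

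The minimum of 2000 reads cuts through a continuous range of levels. Just inside it lay chr3:52435016-52435075 with 2002 reads, chr14:31569313-31569378 with 2007 and chr3:50355211-50355252 with 2008. Isolated regions just outside were chr16:30899108-30899132 with 1999 reads, chr12:132428377-132428412 with 1997 and chr19:49298311-49298339 with 1994. Expressed as a level, the minimum is 117 CPM of the pooled reads. It was reached in every library by 457 of the 562 regions (81.3%), and by 526, 490, 535 and 539 in libraries 1 to 4. A further 120 isolated regions outside the set reached it in at least 1 library, but none of them in all 4.

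Isolation was likewise a matter of degree. The nearest same-strand region lay a median of 22698 bases away (interquartile range 11051 to 59653 bases). It lay beyond 10000 bases for 437 of the 562 regions (77.8%), beyond 100000 bases for 67 and beyond 1000000 bases for 2. Just inside the 5000 bases were chr21:45747211-45747265 with a gap of 5001 bases, chr11:64089258-64089299 with 5038 and chr16:67232793-67232831 with 5068. Strong regions just outside had gaps of 4998 bases (chrX:64961771-64961809), 4991 (chr17:73126310-73126342) and 4978 (chr12:56113463-56113508).

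The 5 most distant regions had no same-strand region for at least 627726 bases on either side. On the plus strand of chromosome X, chrX:51645419-51645459 had its neighbours 1550506 bases to the 5' side and 1464330 to the 3' side. Its level was 128, 149, 114 and 110 CPM in libraries 1 to 4, with library 2 the highest. On the minus strand chr14:79679975-79679982 was alone for 1171328 bases and chr2:33808708-33808760 for 627726. On the plus strand chr8:97346725-97346817 was alone for 808896 bases and chr2:98264619-98264664 for 763486. The latter had 109, 78.6, 283 and 246 CPM, so that libraries 3 and 4 exceeded libraries 1 and 2 without overlap.

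Gaps were longer on the 3' side than on the 5' side. The median was 37289 bases towards the transcript body and 64134 beyond the 3' end, and the nearest same-strand region was on the 5' side for 331 regions and on the 3' side for 231. Isolated regions with 500 to under 2000 reads had medians of 60772 and 85873 bases, in the same order. Strong regions with a neighbour had 552 and 3836 bases. The nearest same-strand region of a strong isolated region was mostly weak, with a median of 158 reads. It had fewer than 100 reads for 234 regions (41.6%) and 2000 or more for 79.

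How often a strong region was isolated depended on how weak neighbours were counted. The isolated share was 36.1% (32.5% to 40.0%) among the 631 strong regions with under 3000 reads, 33.0% (29.1% to 37.1%) from 3000 to under 5000, 32.7% (28.0% to 37.9%) from 5000 to under 10000 and 25.9% (20.2% to 32.7%) at 10000 or more. When neighbours with under 1% of a region's own reads were ignored, the order turned. The share then stayed at 36.1% in the lowest class and was 38.1% (34.0% to 42.3%), 45.0% (39.8% to 50.3%) and 61.1% (53.9% to 67.8%) in the higher ones. This added 134 regions to the set, of which 65 had 10000 reads or more, and raised the share of reads held from 17.2% to 30.2%. No region is listed with under 11 reads in all of its libraries, and a neighbour below 1% can therefore appear only beside a well read region.

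The strong isolated regions had a median width of 46 bases, from 8 to 154, with an interquartile range of 36.3 to 57.8. Widths over the table had a median of 27 bases, those of isolated regions with 500 to under 2000 reads 35, and those of isolated regions with under 500 reads 18. Strong regions with a same-strand neighbour had a median of 50.5 bases. Medians were larger in classes with more reads, at 42.5 bases under 3000 reads and 44.5, 49.0 and 57.5 in the higher classes. Strong regions with a neighbour had 47.0, 49.0, 56.0 and 59.0 bases in the same classes, above the isolated regions in each. Across the 562 regions, Spearman's rho of width and reads was 0.23, a description of regions counted in the same libraries. Regions are not replicates, and the difference in width was not tested.

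**Figure D2:**
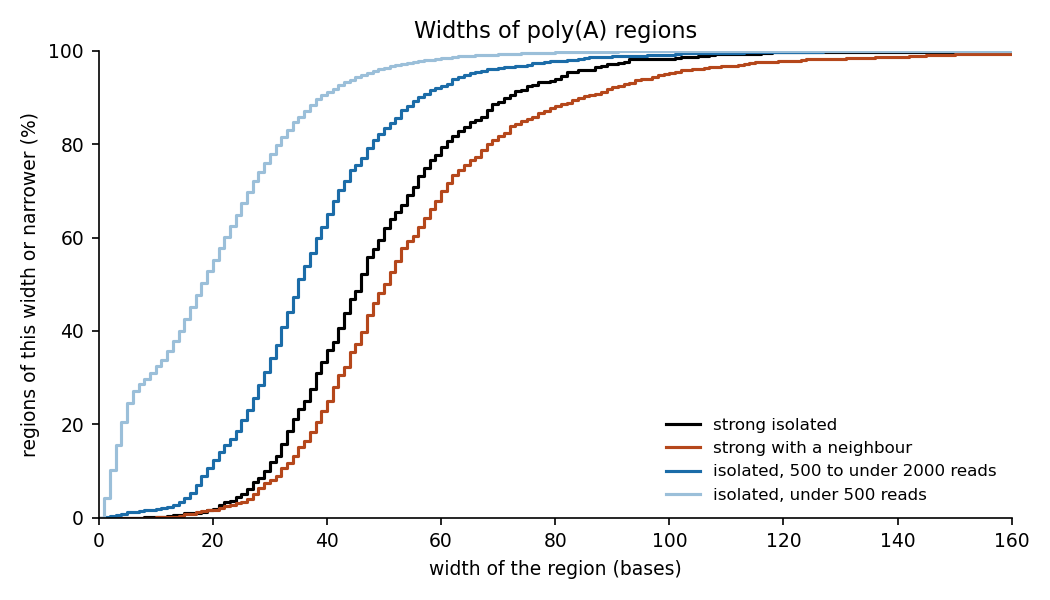
Cumulative share of regions (percent) up to each width in bases, for the strong isolated regions and 3 other sets. The strong isolated regions reach their median at 46 bases, between the isolated regions with 500 to under 2000 reads (35) and the strong regions with a neighbour (50.5).

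The widest of the set was chr16:2011908-2012061 on the minus strand, at 154 bases, with 557, 618, 467 and 514 CPM. A region of the opposite strand overlapped it. Next came chr17:8280831-8280958 (minus strand, 128 bases), chr1:150937632-150937749 (minus strand, 118 bases) and chr2:220114985-220115100 (minus strand, 116 bases). The chromosome 1 region was among the even ones, with 199, 209, 212 and 216 CPM, whereas that on chromosome 17 varied more between libraries than any other strong isolated region, as given below. Only 10 strong isolated regions (1.78%) were 100 bases wide or more, against 55 (4.89%) of the strong regions with a neighbour and 0.653% of all regions.

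Narrow regions were few. A width of 20 bases or less was found for 11 of the 562 (1.96%). Among the 1124 strong regions with a same-strand neighbour it was found for 19 (1.69%), so both strong sets held few. Over the table it was found for 10178 of the 31081 regions. A width of 10 bases or less was found for 1 region in each of these sets, against 11.99% of all regions. In isolated regions with under 500 reads that share was 32.5%. The strong isolated region of this width, chr14:79679975-79679982 on the minus strand, was 8 bases wide and also the second most distant. Its level was 265, 194, 160 and 170 CPM, highest in library 1. The region chr2:23622191-23622202 (plus strand, 12 bases) had 366, 455, 46.4 and 59.5 CPM, and chr15:101821711-101821723 (minus strand, 13 bases) had 208, 238, 109 and 119. In both, libraries 1 and 2 lay above libraries 3 and 4 without overlap. The next narrowest, both of 15 bases, did not share this order. The level of chr16:4390243-4390257 was 163, 131, 148 and 172 CPM, and that of chr12:44187519-44187533 was 121, 104, 156 and 173.

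The order of the libraries was not the same in all width classes. Of the 11 regions of 20 bases or less, 6 had both of their highest values in libraries 1 and 2 and 3 in libraries 3 and 4. Of the 34 regions wider than 80 bases, 10 were highest in libraries 1 and 2 and 20 in libraries 3 and 4. The classes between showed no steady shift with width. The counts for libraries 1 and 2 and for libraries 3 and 4 were 79 and 73 of 191 at 21 to 40 bases. They were 87 and 110 of 244 at 41 to 60 bases, and 36 and 32 of 82 at 61 to 80 bases. Median levels of the narrow class were 208, 194, 150 and 144 CPM in libraries 1 to 4, and those of the wide class 233, 204, 339 and 302. The 191 regions of 21 to 40 bases were even, with medians of 182, 177, 173 and 179 CPM. These classes were chosen after the data had been seen, and the relation of width and library order was not tested.

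The set was spread over all chromosomes except Y, with 292 regions on the plus strand and 270 on the minus strand. Chromosome 19 led with 82 (14.6% of the set), while 4.72% of all regions and 175 of the 1686 strong regions lay on it. Its 82 regions gave 16.3% of the set's reads. Together its strong isolated regions gave 28027 ± 1086 CPM (SD, n = 4), which was 30.3% of the reads of that chromosome. Chromosome 1 followed with 56 regions, chromosome 11 with 49, chromosome 17 with 42 and chromosome 16 with 36. Chromosomes 13 and 18 had 2 each, and chromosome 21 had 6.

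Measured against the strong regions of each chromosome, isolation was most frequent on chromosome 9, with 32 of 63 (50.8%, interval 38.8% to 62.7%). On chromosome X it was 18 of 38 (47.4%, 32.5% to 62.7%) and on chromosome 19 it was 82 of 175 (46.9%, 39.6% to 54.2%). The lowest shares were on chromosome 13 (2 of 20, 10.0%, 2.79% to 30.1%), chromosome 18 (2 of 19, 10.5%, 2.94% to 31.4%) and chromosome 6 (9 of 59, 15.3%, 8.24% to 26.5%). Intervals of chromosomes 9, 11 and 19 lay above the overall 33.3%, and those of chromosomes 6, 12, 13 and 18 below it. They cover counting error only. With 23 chromosomes and about 1 in 20 such intervals missing by chance, no test over chromosomes was made.

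**Figure D3:**
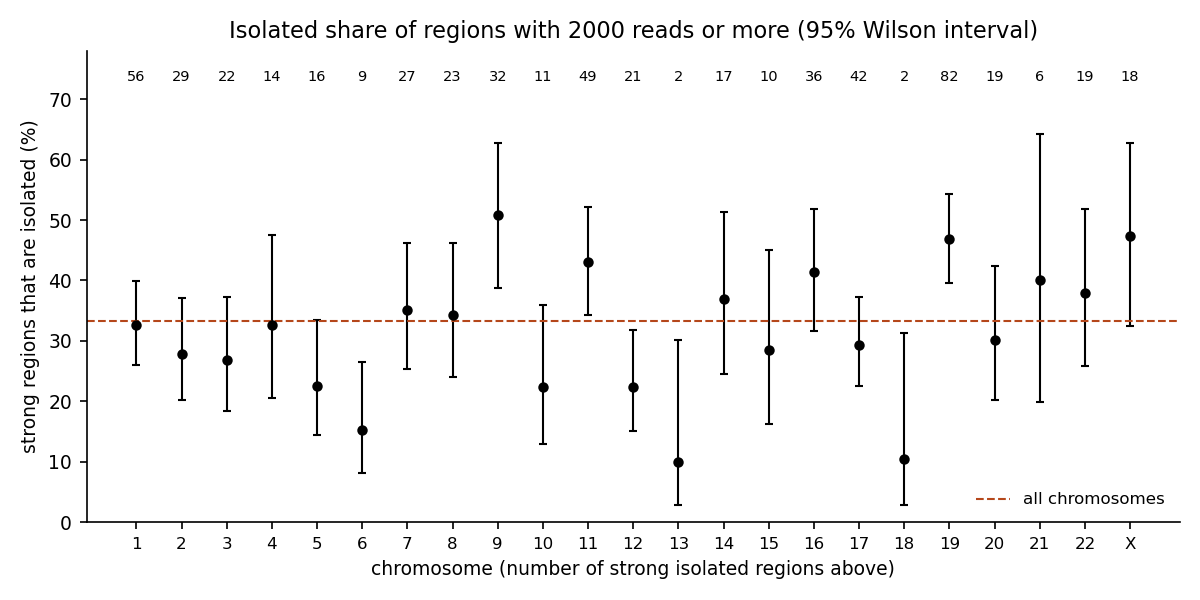
Share of the strong regions of each chromosome that were isolated (percent), with 95% Wilson intervals, and the number of strong isolated regions written above each. The dashed line marks the share over all chromosomes, 33.3%. Chromosomes 9, 11 and 19 lie above it and chromosomes 6, 12, 13 and 18 below it with their whole interval.

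Within chromosomes, many strong isolated regions lay near others. They were found in 346 of the 2625 stretches of 1 Mb that held any region, alone in 229 of them, in pairs in 70 and as 3 or more in 47. These 47 stretches held 193 of the regions (34.3%). The same share was not computed for other sets, so the counts do not separate this from the density of regions in general. The stretches named next were picked for holding the most strong isolated regions. Their limits are the outermost of those regions, which favours a high isolated share. The densest lay near the end of chromosome 8, where 10 of 11 strong regions between 145067551 and 145736707 were isolated. On chromosome 11, 9 of 12 strong regions between 252947 and 867127 were isolated. On chromosome X it was 6 of 9 between 153063917 and 153759625, and on chromosome 19 it was 6 of 11 between 1009613 and 1497936 and 6 of 7 between 14230317 and 14676913. On chromosome 17 it was 6 of 13 between 73017325 and 73894759.

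The rule looked at same-strand gaps and at reads, and regions of the opposite strand did not enter it. An opposite-strand region lay within 2 kb of 115 of the 562 regions (20.5%, interval 17.3% to 24.0%). For strong regions with a same-strand neighbour the share was 19.0% (16.9% to 21.4%), and for isolated regions with 500 to under 2000 reads it was 18.6% (16.7% to 20.6%). The 3 intervals overlap. Over all regions of the table it was 9.70%, and over isolated regions with under 500 reads 5.64%. The share thus differed with reads, which the rule used, and is not independent of the rule. Of the 115 regions, 10 faced another strong isolated region, and such pairs enter the share from both sides. No region of either strand was listed within 5 kb of 408 of the strong isolated regions.

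Most of these opposite-strand regions lay beyond the 3' end, as ends of converging transcripts would. This position was found for 82 of the 562 regions (14.6%, 11.9% to 17.7%), at a median distance of 541 bases. For 18 regions (3.20%, 2.04% to 5.01%) the opposite-strand region overlapped, and for 15 (2.67%, 1.62% to 4.36%) it lay on the side of the transcript body. Strong regions with a neighbour had 13.7%, 2.31% and 3.02% in the same positions. In the nearest 500 bases beyond the 3' end, 40 of the strong isolated regions had their opposite-strand region. The opposite-strand region usually was the weaker, with a median of 557 reads, and it had more reads than the strong isolated region in 15 of the 115 cases.

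**Figure D4:**
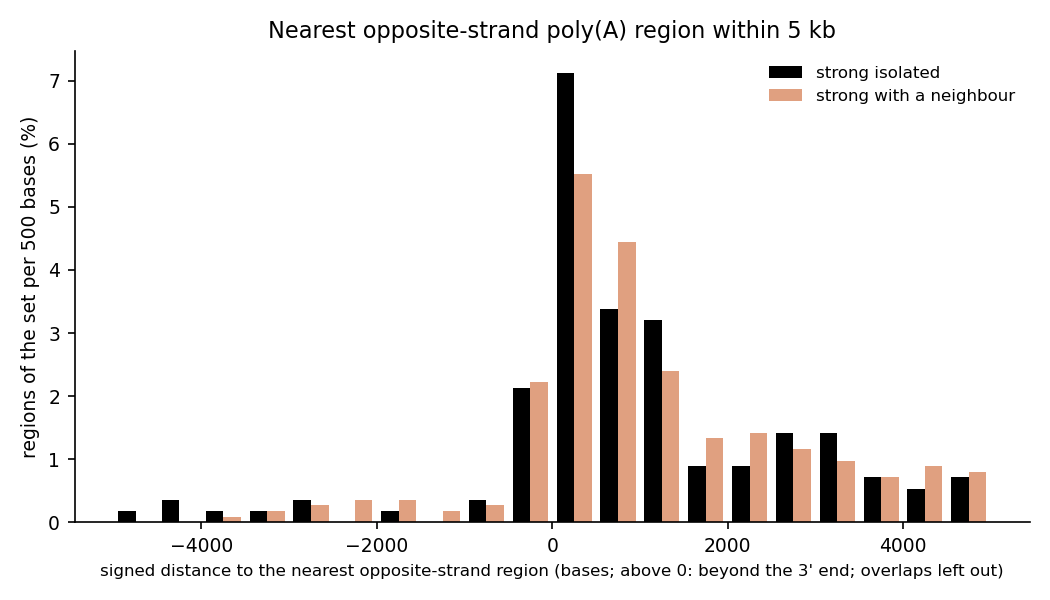
Signed distance (bases) from each strong region to its nearest opposite-strand region, in bins of 500 bases, as a percent of each set, with overlapping regions left out. Values above 0 lie beyond the 3' end, and the bin from 0 to 500 bases holds 7.12% of the strong isolated regions and 5.52% of the strong regions with a neighbour.

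In 5 cases strong isolated regions of both strands faced each other within 2 kb, every time with their 3' ends towards each other. The pair with the shortest gap was chr19:14519513-14519548 (plus strand; 147, 157, 126 and 126 CPM) and chr19:14519604-14519666 (minus strand; 397, 486, 276 and 316 CPM), 56 bases apart. Both of its regions were higher in libraries 1 and 2. The pair chr1:43828855-43828905 (plus strand) and chr1:43829061-43829108 (minus strand), 156 bases apart, went opposite ways. Its plus-strand region had 56.0, 28.2, 180 and 174 CPM and was lower in libraries 1 and 2, while its minus-strand region had 256, 264, 203 and 216 CPM and was higher there. The other 3 pairs had smaller ratios between libraries than this plus-strand region. On chromosome 9, chr9:139567106-139567139 (127, 122, 133 and 137 CPM) faced chr9:139567587-139567618 (115, 93.8, 141 and 145 CPM) across 448 bases. On chromosome 11, chr11:118894333-118894390 (151, 152, 156 and 162 CPM) faced chr11:118895054-118895095 (157, 157, 149 and 144 CPM) across 664 bases. On chromosome 17, chr17:76168748-76168815 (303, 277, 375 and 383 CPM) faced chr17:76170144-76170197 (727, 825, 793 and 794 CPM) across 1329 bases.

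Variation between libraries was small for most of the set. The median CV of a strong isolated region was 10.7% (interquartile range 6.25% to 17.6%), where sampling of independent reads alone would give a median of 3.71%. With the set chosen again on libraries 1 and 2 alone (552 regions) the median was 5.24%, and on libraries 3 and 4 alone (579 regions) 3.27%. A CV of 2 libraries is not directly comparable with one of 4, and the sampling CV of the pairs was not computed. Strong regions with a neighbour had a median of 11.1% over the 4 libraries, isolated regions with 500 to under 2000 reads 13.6%, and all regions 28.3%, where sampling alone would give 21.2%. A CV under 5% was found for 99 of the strong isolated regions (17.6%), and one above 30% for 44 (7.83%). For strong regions with a neighbour these shares were 15.7% and 10.9%, and over all regions 2.62% and 47.5%. Across the 562 regions, Spearman's rho of the CV was 0.04 with reads and 0.05 with the gap to the nearest region, given as a description.

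A chi-square test of each region's 4 counts against the library totals asked whether the libraries differed by more than the counting error of independent reads. It compares libraries, not conditions. Reads copied from the same molecule would add to its calls, and whether such duplicates were removed is unknown. After Benjamini-Hochberg adjustment over all 31081 regions, 414 of the 562 strong isolated regions (73.7%) passed the threshold of 0.05, against 40.9% of all regions. The test finds smaller differences where more reads were counted. In strong regions with a neighbour 77.8% passed. With all libraries thinned at random to the smallest total, 351 of the strong isolated regions (62.5%) passed, against 30.5% of all regions. With libraries 1 and 2 alone 90 of the 562 passed, against 1.82% of all regions, and with libraries 3 and 4 alone 39, against 0.633%. The 148 strong isolated regions that did not pass over the 4 libraries had a median CV of 4.44% and a median of 2951 reads.

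The most even region was chr17:38974360-38974403 on the minus strand, with 436, 430, 433 and 444 CPM and a CV of 1.31%. Next was chr19:17342682-17342726 on the minus strand, with 312, 301, 305 and 310 CPM. On the plus strand chr17:73231844-73231876 had 128, 131, 127 and 126 CPM. In these regions the spread between libraries was below the 2.49% to 4.59% that sampling alone would give. The other regions of the 5 with the lowest CV were chr20:23614279-23614324 (325, 320, 329 and 317 CPM) and chr3:52435016-52435075 (118, 115, 116 and 119 CPM). These 5 regions were picked for their low spread, so their evenness is a description.

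A ratio above 2-fold between the highest and the lowest library was found for 34 of the 562 regions (6.05%), against 47.0% of all regions and 8.90% of strong regions with a neighbour. It never arose within a pair: the count was 0 for libraries 1 and 2 (background over all regions 11.0%) and 0 for the other pair, libraries 3 and 4 (11.9%). Strong regions with a neighbour also had 0 of 1124 in both pairs, so this was not particular to isolated regions. Against library 3, library 1 differed over 2-fold at 14 of the 562 regions (2.49%, against 29.0% of all regions). Library 2 did so at 32 (5.69%, against 35.3%). Against library 4 the counts were 17 for library 1 (3.02%, against 28.7% of all regions) and 27 for library 2 (4.80%, against 34.9%). In strong regions with a neighbour, libraries 1 and 2 had 5.43% and 8.63% against library 3. Against library 4 they had 4.72% and 7.92%. With a library left out and the set chosen again, 43 of 577, 21 of 572, 24 of 562 and 30 of 557 regions exceeded 2-fold, without libraries 1 to 4 in turn. Library 2 had the fewest reads. With all libraries thinned to the smallest total, 38 of the 562 regions exceeded 2-fold. Of the 34 regions, 29 had their 2 highest values in libraries 3 and 4 (5.16% of the set) and 5 in libraries 1 and 2 (0.890%). The strong regions with a neighbour lay the same way, with 6.94% and 1.96%. Over all regions the order was the reverse, with 10.5% over 2-fold and highest in libraries 3 and 4 and 26.3% in libraries 1 and 2. At any ratio, 238 of the strong isolated regions (42.3%) were highest in libraries 3 and 4, against 24.8% of all regions, and 218 (38.8%) in libraries 1 and 2, against 40.8%. For strong regions with a neighbour the shares were 41.2% and 39.8%. The remaining regions had their highest values in other combinations of libraries.

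The largest ratio, 18.1-fold, belonged to chr17:8280831-8280958 on the minus strand. It had 29.0, 22.2, 401 and 272 CPM in libraries 1 to 4, from 151, 48, 2290 and 1085 reads. Next was chr9:140138124-140138215 on the plus strand, with 417, 96, 2723 and 1760 reads, or 44.4 CPM in library 2 and 477 in library 3, its lowest and highest. The region chr11:319632-319713 on the minus strand had 38.4, 31.0, 269 and 213 CPM. All 3 are thus low in libraries 1 and 2, and they are 128, 92 and 82 bases wide, above the set's median.

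The 2 largest differences in the other direction were at chr2:23622191-23622202, the region of 12 bases described above, with a ratio of 9.81, and at chr1:8921048-8921107 on the minus strand. The latter was among the strongest of the set, with 1821, 2384, 464 and 496 CPM and a ratio of 5.14. The 34 regions held 7.02% of the set's reads and lay on 15 chromosomes, 5 of them on chromosome 1 and 4 each on chromosomes 9 and 17. Their median width was 52 bases and 4 were 20 bases wide or less. An opposite-strand region lay within 2 kb of 3 of the 34 (8.82%), against 20.5% of the set and 9.70% of all regions, and the difference was not tested. What the division of the libraries follows was not tested.

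**Figure D5:**
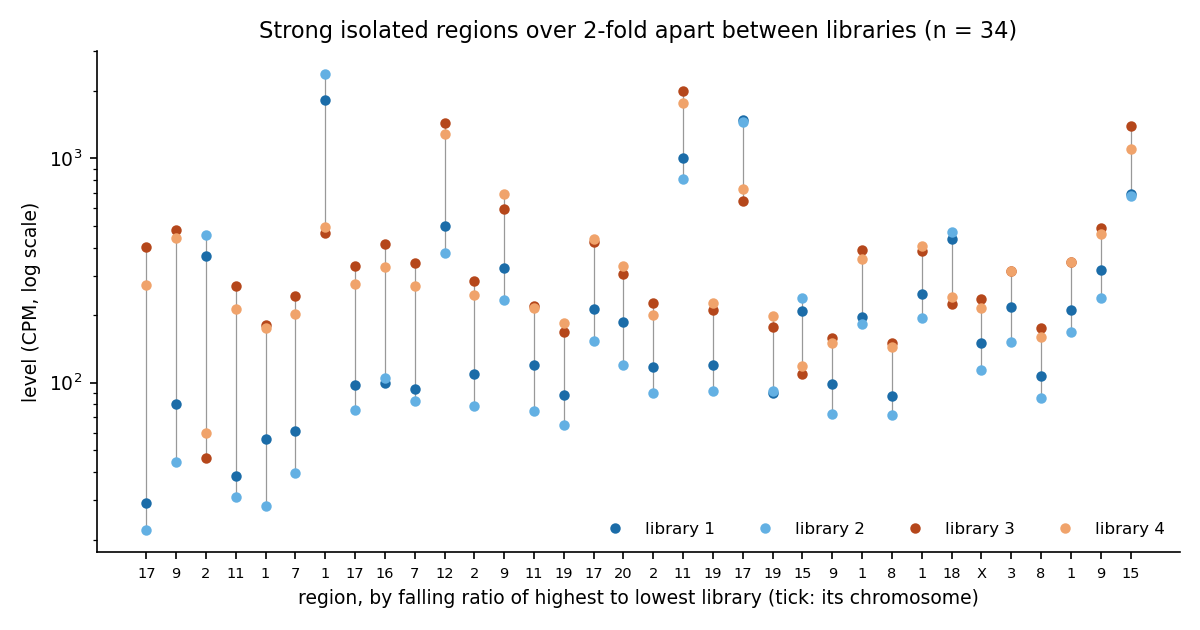
Level in CPM (log scale) in each of the 4 libraries for the 34 strong isolated regions with over 2-fold between the highest and the lowest library, ordered by falling ratio and labelled by chromosome. Libraries 3 and 4 lie above libraries 1 and 2 in 29 of them and below in 5.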

How the data were processed

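Per the file headers, the authors deposited a count table whose rows are poly(A) regions with chromosome, start, end and strand and whose columns are the 4 libraries, not normalized. Bowtie2 2.2.5 and the build hg19 are named in the submitters' processing notes. How reads were joined into regions, whether duplicates were removed with the 6 degenerate primer bases, and whether positions count from 0 or 1 are points on which the sources used here are silent. Positions are printed as deposited and widths are end minus start plus 1.

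From the counts, CPM were computed on library totals (2163977 to 5713530 reads), with mean, SD and CV over 4 libraries. Sampling CVs and the chi-square test treat reads as independent molecules, so PCR duplicates would add to the spread and to the calls. Differences between libraries were tested by chi-square with 3 degrees of freedom (scipy 1.17.1), adjusted over all 31081 regions, and the script was checked on simulated counts. The 95% Wilson intervals are for shares of regions and cover counting error only. Alternatives used the TMM factors of edgeR 4.0.16, DESeq2 1.42.0 size factors and thinned counts. The members, sets and rules were chosen with earlier results of these data known. Named regions were the 10 with the most reads, 5 each of the widest, narrowest, most and least variable and most distant, and 3 on either side of each limit. Facing pairs, and the classes by reads and by width, were chosen after the data were seen. Gene names and poly(A) signals were planned and are not reported, since no annotation or genome of hg19 was used here.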

Additional observations from a re-analysis of the deposited data

Results flagged for a closer look

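In 3 of 67 values a library lay far from the rest, where chance alone flags about 1 in 20. The gap to the nearest library, as a share of the range, was 0.885 for the distant region chr2:33808708-33808760, with 123, 150, 123 and 120 CPM in libraries 1 to 4 and library 2 on the high side. It was 0.870 for the summed level of the strong isolated regions of chromosome 10 (2213, 2015, 2243 and 2234 CPM), where library 2 was low. It was 0.836 for those of chromosome 20 (7165, 7749, 7125 and 7227 CPM), where library 2 was high. This sum includes chr20:60963536-60963604, with 2875, 3559, 2572 and 2683 CPM. The lead of library 2 in that region alone was larger in CPM than in the sum. Library 2, the one with the fewest reads, was the distant one each time.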

How the results depend on the processing

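Of 87 recomputed values, 57 stayed within their limits and 30 moved. The limit was 1.5 times for counts and the spread between libraries for other values, except the median CV. The median CV was judged by a band drawn from the CVs of the 562 regions. Such a band treats regions as replicates and is not a spread between libraries. A minimum of 1000 reads gave 1170 regions with 22.2% of the reads, a median width of 42 bases, a median CV of 11.7% and 97 regions over 2-fold. A minimum of 5000 gave 160 regions, 10.2%, 51.5 bases and 11 regions over 2-fold, with 16.9% near an opposite-strand region. With isolation within 2000 bases the set held 21.0% of the reads and 20.0% of it lay near an opposite-strand region, and within 10000 bases 13.3% and 20.8%. Ignoring neighbours under 1% gave 30.2% of the reads and a median width of 47 bases. Leaving out each library gave a median CV of 8.73% to 11.8%, 21 to 43 regions over 2-fold, and 20.1% to 20.8% near an opposite-strand region. These are the lowest without library 2 and the highest without library 1 for the first 2 quantities. With libraries 1 and 2 alone the median width was 45 bases and 21.4% lay near an opposite-strand region. The median CV was 5.24% and 0 regions exceeded 2-fold. Of the 562 regions 90 passed the chi-square test on this pair, while 1.82% of all regions did. With libraries 3 and 4 alone the set held 17.9% of the reads, with a median CV of 3.27% and 0 regions over 2-fold. Of the 562 regions 39 passed the test on this pair, while 0.633% of all regions did. The choice of these pairs was made after seeing the data. With them, 513 and 535 of the 562 regions remained in the set. TMM and DESeq2 scaling gave 39 and 38 regions over 2-fold. No paired analysis was possible because the series has a single group. Poly(A) regions under 11 reads in every library are not in the table, so isolation is limited by depth.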
